A study of Mus musculus with 16 samples.

Results

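Described here are 8 of the 831 genes of the deposited table, grouped as lysosome membrane and damage genes of phagocytes. They include the proton pump subunits Atp6v0d2 and Tcirg1 and the membrane proteins and transporters Gpnmb, Laptm5, Slc11a1 and Slc9a9. The others are progranulin (Grn) and galectin-3 (Lgals3). Slc9a9 is an exchanger of endosomes found in many cell types. The 8 are a chosen set, and other lysosomal genes of the table are given further on. They were taken by gene symbol, and all 8 were found; 7 had reads in all 16 libraries, and Atp6v0d2 had none in 2 miR-133b-/- libraries and 1 Control library. RNA was sequenced from whole tibialis anterior, a muscle of the lower leg, of mice at postnatal day 30. The 16 libraries formed 4 groups of 4: mdx/miR-133b-/- (genotype given as mdx-/- with miR-133b-/-), mdx (mdx-/-), miR-133b-/-, and Control (wild type). The mdx mouse carries a mutation of Dmd, the gene of dystrophin, in the whole animal and models Duchenne muscular dystrophy; the microRNA miR-133b is known from skeletal muscle. The study asked how loss of this microRNA bears on the course of the dystrophy, so each mutation can be read with and without the other. Sex, strain background and whether replicate libraries are separate animals are not stated, so the p-values cover library-to-library spread that may be purely technical. Dmd and the locus of miR-133b were not analysed here, since neither is among the listed genes.

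Lysosomes are acidic organelles in which phagocytes digest the material they engulf, and in dystrophic muscle macrophages clear the debris of dying fibres. The vacuolar proton pump in the lysosome membrane makes the interior acidic, and transporters in the same membrane move protons and metal ions out of or into it. Glycoproteins of that membrane and lysosomal growth factors mark phagocytes laden with debris, and galectins bind sugars that become exposed when the membrane breaks.

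Values are reads per gene that the authors multiplied by 1 factor per library, called scaled reads below. Each library had between 2356990 and 6000033 reads in the 831 genes, the total depth is unknown, and intervals on the values cover the spread between libraries only. The listed genes are a selection: in each of them mdx/miR-133b-/- differed from miR-133b-/-, so that contrast is only described. Comparisons that use either of those groups share its libraries. The fold changes of mdx against Control use none of them, but their SE and p-values rest on a spread estimated over all 16 libraries. Among the mdx/miR-133b-/- libraries, replicate 2 was the lowest of the group for 7 of the 8 genes and replicate 3 the highest for 7. Over all listed genes replicate 2 was the lowest of the group for 31.5% and replicate 3 the highest for 26.5%, so the mdx/miR-133b-/- results below that change without them are given both ways. One Control library, replicate 1, had 99.3 scaled reads of Gpnmb, against 8.84 to 15.7 in the other Control libraries.

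The genes lie apart on 7 chromosomes in the GRCm38 assembly with GENCODE M21 annotation. Gpnmb spans chr6:49036546-49070929 on the plus strand and Atp6v0d2 spans chr4:19876841-19922605 on the minus strand. Laptm5 lies on chromosome 4 as well, at 130913125 to 130936141, Tcirg1 on chromosome 19, Slc11a1 on chromosome 1, Slc9a9 on chromosome 9, Grn on chromosome 11 and Lgals3 on chromosome 14. The 3' end of Grn overlaps the 3' end of Fam171a2 on the opposite strand, and Slc9a9 contains an antisense gene, a microRNA gene and a processed pseudogene. Whether counting used strand is not given in the sources used here, so the levels of Grn and Slc9a9 are uncertain to that extent.

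Promoter windows, from 250 bases before to 50 after the start site, were read from the RefSeq table (GRCm38.p6) for 7 of the 8 genes, 9 windows in all; Atp6v0d2 had no entry. These 4 motifs were searched on both strands. CACGTG is the core of the element shared by many lysosomal genes, and TCATGTG is the M-box of the MITF and TFE family. GAGGAA is a core of PU.1 sites in myeloid genes. TGANTCA is a looser form of the AP-1 element, with any base at its middle. CACGTG was in none of the 9 windows, against 7.17% of all 32544 windows in the table. GAGGAA was in a window of 4 genes, Tcirg1, Laptm5, Slc11a1 and Grn, against 28.1% of all windows; Tcirg1 had 3 windows, and the match was in 1 of them. TGANTCA was in those of Gpnmb, as TGACTCA, and Slc9a9, as TGAATCA (7.79% of all windows with any middle base). TCATGTG was in that of Grn (3.79%). A match describes letters only. The windows of Gpnmb (chr6:49036268-49036567, plus strand), Laptm5 (chr4:130913066-130913365, plus), Slc11a1 (chr1:74374953-74375252, plus) and Grn (chr11:102430257-102430556, plus) are shown 5′ to 3′ because they hold these matches, which are in capitals.
Gpnmb: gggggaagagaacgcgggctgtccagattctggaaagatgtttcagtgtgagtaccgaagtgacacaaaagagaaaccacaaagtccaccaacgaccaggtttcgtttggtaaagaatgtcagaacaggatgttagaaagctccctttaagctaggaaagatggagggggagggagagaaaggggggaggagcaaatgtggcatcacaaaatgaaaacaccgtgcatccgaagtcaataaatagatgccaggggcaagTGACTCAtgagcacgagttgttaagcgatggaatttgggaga
Laptm5: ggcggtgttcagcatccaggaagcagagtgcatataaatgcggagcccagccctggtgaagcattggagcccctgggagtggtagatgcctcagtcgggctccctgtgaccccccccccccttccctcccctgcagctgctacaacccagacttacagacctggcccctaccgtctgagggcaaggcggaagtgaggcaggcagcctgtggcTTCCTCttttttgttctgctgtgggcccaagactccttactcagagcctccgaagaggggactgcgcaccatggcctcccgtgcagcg
Slc11a1: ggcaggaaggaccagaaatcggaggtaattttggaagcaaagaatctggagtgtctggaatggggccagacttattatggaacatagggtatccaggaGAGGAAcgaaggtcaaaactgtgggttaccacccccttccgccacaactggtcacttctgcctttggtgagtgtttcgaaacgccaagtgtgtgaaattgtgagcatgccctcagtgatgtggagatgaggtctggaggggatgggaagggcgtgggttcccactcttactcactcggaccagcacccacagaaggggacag
Grn: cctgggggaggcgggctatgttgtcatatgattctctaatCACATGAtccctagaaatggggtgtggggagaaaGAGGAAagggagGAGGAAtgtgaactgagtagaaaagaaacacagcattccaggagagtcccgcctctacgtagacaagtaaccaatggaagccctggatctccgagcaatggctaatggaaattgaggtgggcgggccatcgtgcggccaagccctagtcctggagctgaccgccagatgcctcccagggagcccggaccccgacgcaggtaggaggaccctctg
In Gpnmb the AP-1 element began 8 bases after the start site, and in Laptm5 GAGGAA was on the opposite strand (read as TTCCTC), its first base 38 before the start. Start sites here follow RefSeq and can differ from the GENCODE gene ends. Those of Laptm5, Grn and Lgals3, for example, lie inside the GENCODE gene, as does this match of Laptm5.

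Tcirg1 and Gpnmb, 2 of the 8 genes, had a match to the seed of miR-133b-3p in an annotated 3' UTR, as did 89 of the 780 listed genes with such a UTR (11.4%). The mature microRNA (RefSeq, GRCm38.p6, chr1:20682834-20682855, plus strand) is shown with its seed, bases 2 to 8, in capitals, and the matching stretches with the complementary bases in capitals.
miR-133b-3p: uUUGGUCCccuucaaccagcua
Tcirg1: aaccctcatcaGGACCAAccgcttcacct
Gpnmb: ggcattgtggaGGACCAAcattcagtctg
The stretch in Tcirg1 (chr19:3901951-3901979, minus strand) was in the 3' UTR of 1 of 6 annotated transcripts and in coding sequence of 4. That in Gpnmb (chr6:49057039-49057067, plus strand) was in the 3' UTR of 1 of 3 transcripts. These matches come from the annotation and say nothing of which transcripts the muscle used.

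Among the proton pump subunits, Atp6v0d2 had at most 18 reads in any library with dystrophin and 24 to 755 reads in the dystrophic libraries, the 24 in mdx/miR-133b-/- replicate 2. It encodes the d2 subunit of the membrane sector of the pump, the form found in osteoclasts and macrophages. Its scaled reads were 176, 15.9, 436 and 109 in mdx/miR-133b-/-, 69.8, 122, 105 and 93.7 in mdx, 0, 0, 2.94 and 2.37 in miR-133b-/-, and 12.9, 3.79, 0.731 and 0 in Control. The lowest dystrophic library stood above the highest library with dystrophin, and within mdx/miR-133b-/- the values spread 27.4-fold. In mdx against Control the log2 fold change was 4.88 (SE 0.91, limma adjusted p = 0.000277, Benjamini-Hochberg over all 831 genes). This fold rests on 18, 6, 1 and 0 reads in Control and on the 1 scaled read added before taking logs: it was 2.97 with 10 added, and 5.58 without Control replicate 1.

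Tcirg1, which encodes the a-type subunit of the same sector that lysosomes of osteoclasts and macrophages use, had the smallest SD of log2 values of the 8 in each group. It had 237, 146, 246 and 168 scaled reads in mdx/miR-133b-/-, 299, 335, 322 and 310 in mdx, 68, 84.2, 102 and 111 in miR-133b-/-, and 134, 150, 133 and 119 in Control. All 4 mdx libraries lay above every library of the other groups. Tcirg1 rose 2.36-fold in mdx against Control (log2 1.24, SE 0.21, limma adjusted p = 0.000142).

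Gpnmb encodes a transmembrane glycoprotein first known from melanocytes and abundant in phagocytes under lysosomal load. It had 483, 42.4, 1420 and 226 scaled reads in mdx/miR-133b-/-, 188, 320, 480 and 314 in mdx, 14, 32.1, 5.89 and 55.4 in miR-133b-/-, and 99.3, 8.84, 14.6 and 15.7 in Control. Its mdx/miR-133b-/- libraries spread 33.5-fold, the widest of the 8 genes in that group, and replicate 2 fell below the highest library of each group with dystrophin. In mdx against Control it rose by 3.78 on the log2 scale (SE 0.84, limma adjusted p = 0.001), and by 4.50 without Control replicate 1.

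Laptm5 encodes a lysosomal membrane protein of blood-derived cells that takes part in turnover of receptors. Its scaled reads were 150, 37.8, 178 and 176 in mdx/miR-133b-/-, 92.9, 121, 130 and 108 in mdx, 2, 7.85, 16.9 and 23.7 in miR-133b-/-, and 33.6, 25.3, 16.8 and 28.4 in Control. In mdx/miR-133b-/- 3 libraries exceeded all 4 mdx libraries, and the other, at 37.8, was just above the highest Control library. In mdx it was 4.30-fold higher than in Control (log2 2.11, SE 0.56, limma adjusted p = 0.00346).

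By estimate both transporter genes rose less than Gpnmb and Laptm5. Slc11a1 encodes the NRAMP metal ion transporter that removes iron and manganese from phagosomes. It had 72.4, 33.1, 162 and 79 scaled reads in mdx/miR-133b-/-, 73.1, 90.5, 110 and 83.6 in mdx, 10, 22.1, 8.83 and 40.3 in miR-133b-/-, and 28.6, 32.2, 24.1 and 22.4 in Control. The mdx values were all above those of Control, and it rose 3.24-fold (log2 1.70, SE 0.47, limma adjusted p = 0.00416).

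Slc9a9 encodes a sodium-proton exchanger of endosomes, which is found in many cell types. Its scaled reads were 179, 144, 195 and 94.8 in mdx/miR-133b-/-, 136, 173, 162 and 138 in mdx, 51, 76.4, 37.5 and 36.96 in miR-133b-/-, and 45.0, 66.3, 63.6 and 56.0 in Control. It was the 1 gene of the 8 whose lowest mdx/miR-133b-/- library was replicate 4 and not replicate 2. It rose 2.62-fold in mdx against Control (log2 1.39, SE 0.28, limma adjusted p = 0.000452).

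Grn encodes progranulin, a secreted protein that lysosomes cut into granulins. It had 405, 152, 367 and 175 scaled reads in mdx/miR-133b-/-, 377, 346, 462 and 341 in mdx, 108, 66.4, 92.7 and 211 in miR-133b-/-, and 192, 199, 176 and 153 in Control. Libraries 2 and 4 of mdx/miR-133b-/- lay within or below the Control values and libraries 1 and 3 within those of mdx. Grn had the smallest rise of the 8 in mdx, 2.11-fold (log2 1.08, SE 0.32, limma adjusted p = 0.00732).

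Lgals3 encodes galectin-3, which gathers on damaged lysosomes and is abundant in activated macrophages. Its scaled reads were 448, 93.4, 736 and 313 in mdx/miR-133b-/-, 226, 394, 406 and 271 in mdx, 38, 46.4, 19.9 and 97.6 in miR-133b-/-, and 102, 19.6, 46.8 and 63.4 in Control. The lowest mdx/miR-133b-/- library fell within the Control range, and every mdx library was above it. In mdx against Control Lgals3 rose 6.25-fold (log2 2.64, SE 0.55, limma adjusted p = 0.000597).

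**Figure D1:**
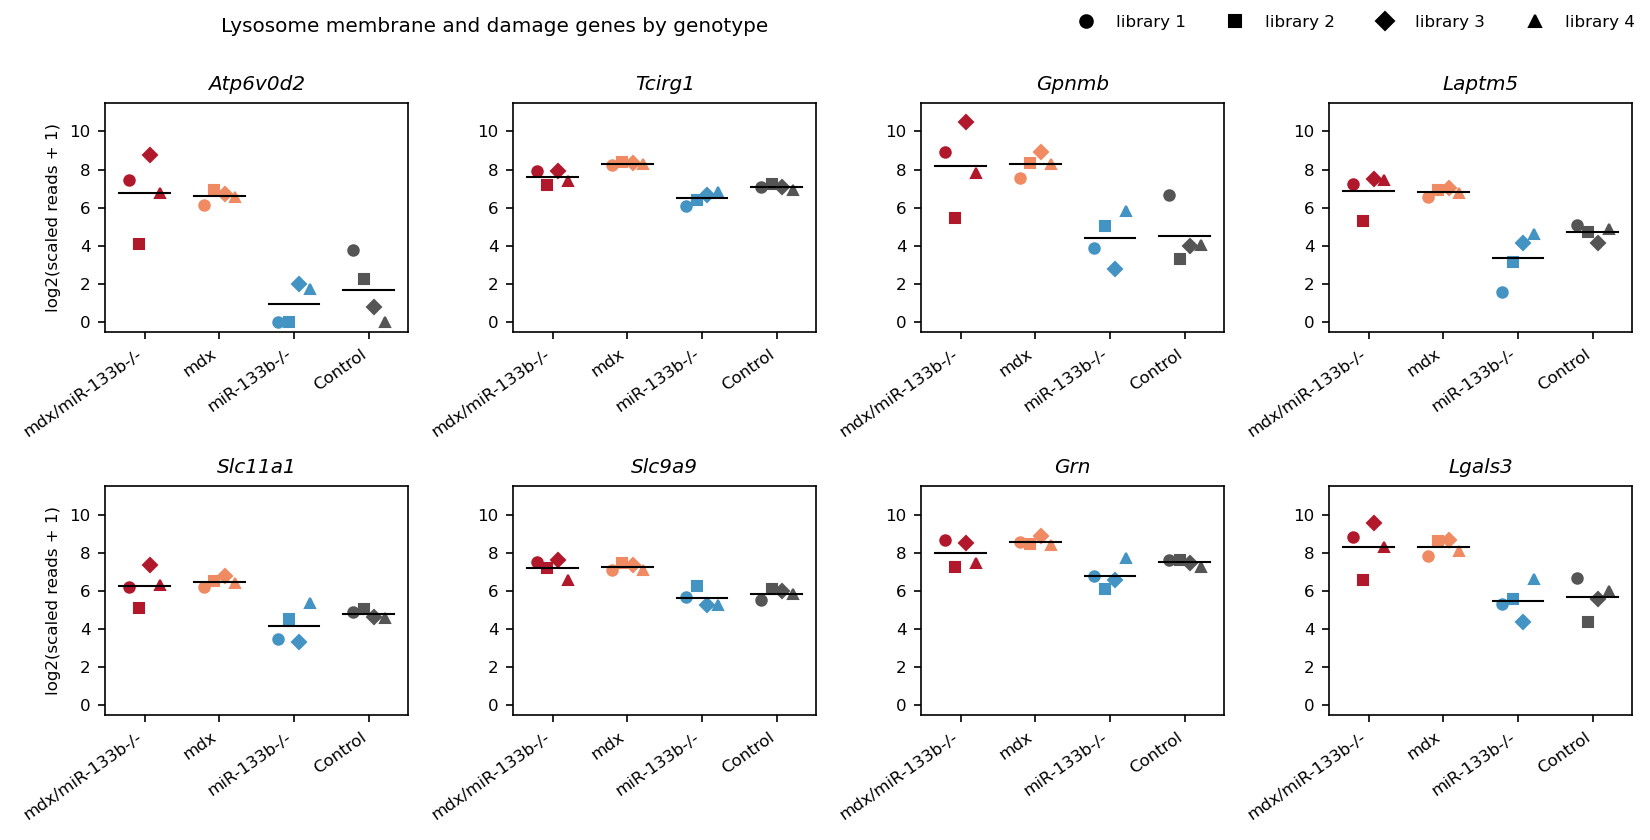
Log2(scaled reads + 1) of each gene in the 16 libraries, by group; marker shapes give the library number, which links no animals across groups, and black bars are group means (n = 4). All mdx points lie above all Control points in each panel, and the mdx/miR-133b-/- points of Gpnmb run from 42.4 to 1420 scaled reads.

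In mdx against Control all 8 genes rose and in all 8 the groups did not overlap. Of all listed genes 44.5% were called higher and 46.2% had every mdx library above every Control library. The median log2 fold change was 1.90 over the 8 genes, against 0.44 over all 831. In mdx/miR-133b-/- against miR-133b-/-, by which the table was selected, 498 genes were higher and 333 lower, and all 8 were among the higher. The shares and the median over all 831 thus include genes that went the other way there. The 8 were also chosen with earlier results of these data known. By size of the rise Atp6v0d2 ranked 2 of 831, Gpnmb 9, Lgals3 36, Laptm5 83, Slc11a1 120, Slc9a9 174, Tcirg1 202 and Grn 231. With relative log expression factors in place of the deposited ones the median of all genes moved to 0.09 and that of the 8 to 1.55, and all 8 were still called higher.

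Markers of macrophages moved with them. The counts of markers below stand beside the 44.5% of all listed genes called higher in mdx. Of 23 macrophage markers 12 were listed, none was at 0 in any library, and 11 rose in mdx, with the smallest p-values for Ms4a7 (17.1-fold) and C1qb (4.72-fold), while Mrc1, the mannose receptor, did not pass (log2 0.33, limma adjusted p = 0.234). Their summed scaled reads ranged from 4141 to 14720 in mdx/miR-133b-/-, from 6977 to 10480 in mdx, from 1032 to 2791 in miR-133b-/- and from 1520 to 2326 in Control. In bulk RNA more cells of a type and more RNA per cell cannot be told apart. All 5 listed fibroblast markers rose as well, Postn 6.07-fold and Pdgfra 2.46-fold among them. So did all 6 listed markers of regenerating fibres, Myh3 46.5-fold and Myl4 13.3-fold among them, and Ckm and Myh4, genes of mature fibres, fell among 4 listed. The part of cell makeup in the rise was not tested. None of 8 neutrophil and 5 melanocyte markers is among the listed genes, and they were not analysed here.

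Set against the summed macrophage markers of the same library, the 8 genes divided. Atp6v0d2 was 1.001 to 1.49% of that sum in mdx and 0 to 0.553% in Control, the 1 gene with all mdx libraries above all Control libraries. Tcirg1, Grn and Slc11a1 went the other way: Tcirg1 was 3.08 to 4.35% in mdx and 5.75 to 8.76% in Control, Grn 4.23 to 5.41% in mdx and 8.26 to 11.6% in Control, and Slc11a1 1.048 to 1.17% in mdx and 1.23 to 1.70% in Control. For Gpnmb, Laptm5, Slc9a9 and Lgals3 the 2 groups overlapped, and Laptm5 averaged 1.39 ± 0.128% in mdx and 1.41 ± 0.271% in Control (SD, n = 4 each). The sum is weighted by level. Lyz2 averaged 4118 of 8193 scaled reads in mdx and 722 of 1840 in Control. Mrc1, which did not pass, averaged 697.6 in mdx and 567.5 in Control. Lyz2 is also among the lumenal proteins given further on. The sum itself was larger in mdx, 8193 against 1840, so a gene that rose less than the sum lies lower by this measure. How many of all listed genes would lie above or below was not counted. These shares depend on that weighting and are descriptions, with no test.

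**Figure D2:**
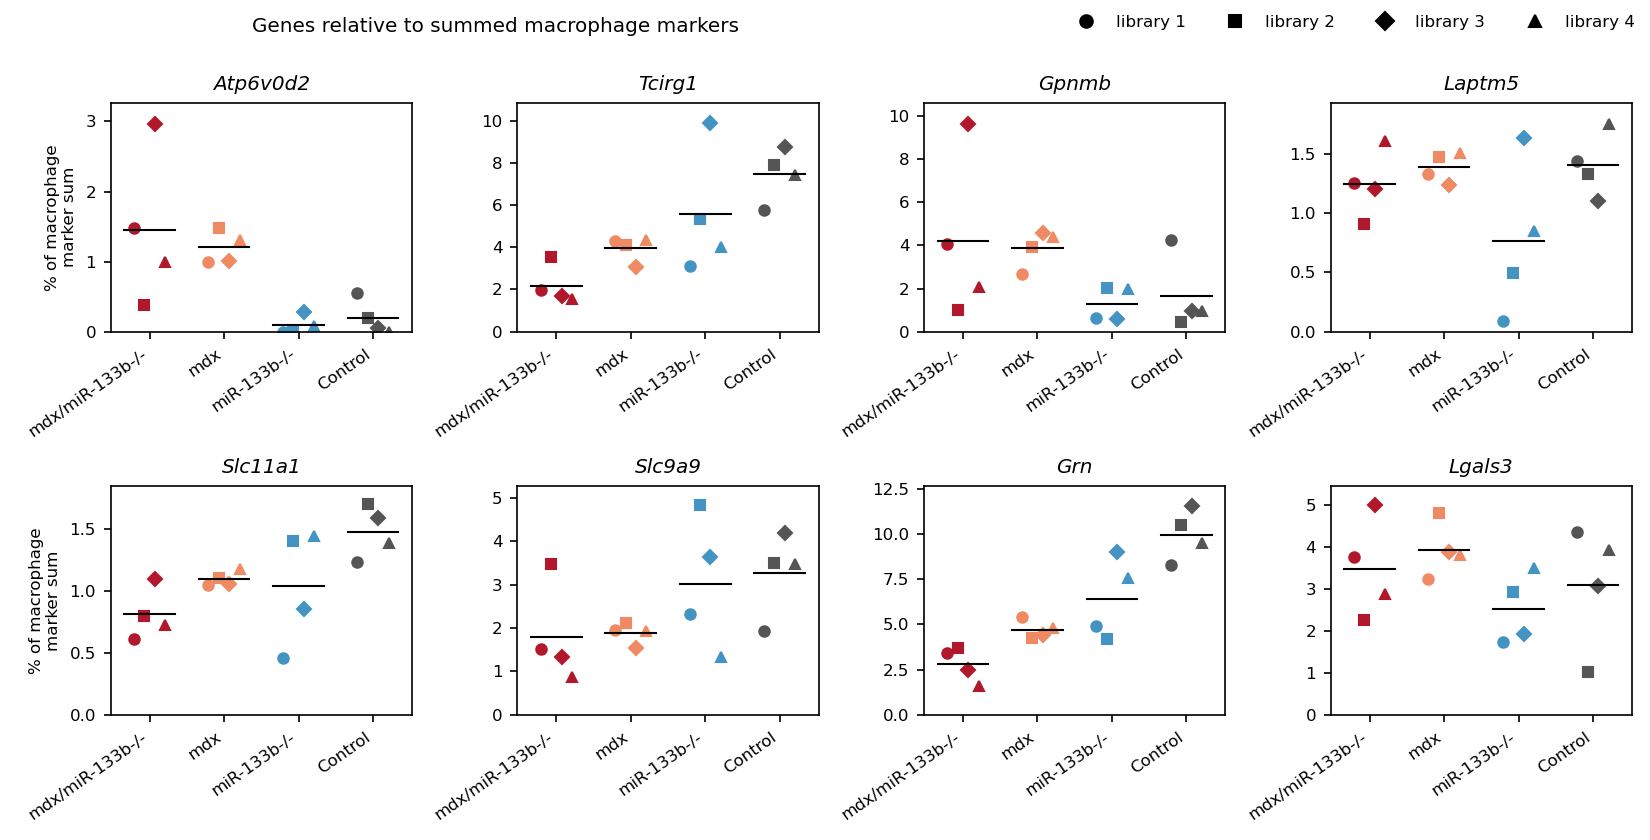
Each gene as a percentage of the summed scaled reads of 12 macrophage markers in the same library, by group, with markers for library numbers and black bars for means (n = 4). In mdx against Control, Atp6v0d2 lies higher, Tcirg1, Grn and Slc11a1 lie lower and the other genes overlap. The same was not counted over all listed genes. Lyz2 has the largest mean of the 12 markers in each group.

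In mdx/miR-133b-/- against mdx 1 of the 8 genes passed, Tcirg1, which fell. Its log2 fold change was -0.70 (SE 0.21, limma adjusted p = 0.0319), and its highest mdx/miR-133b-/- library, at 246 scaled reads, was below the lowest mdx library, at 299. Of all listed genes 12% were called lower, 19.5% were called in either direction and 16.2% had every mdx/miR-133b-/- library below every mdx library, so 1 of 8 is near the background. The call was lost without mdx/miR-133b-/- replicate 2 (log2 -0.56, limma adjusted p = 0.0866) or 4 (-0.63, 0.0888), and without any 1 of the mdx libraries (adjusted p 0.0622 to 0.0758). With the dependence on GC content and gene length taken out of each library it was -0.33 (limma adjusted p = 0.321).

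The other 7 genes did not pass, and their intervals are wide. Grn had a log2 fold change of -0.59 (95% interval -1.27 to 0.08, limma adjusted p = 0.221). Gpnmb had -0.11 (-1.86 to 1.64) and Atp6v0d2 0.18 (-1.73 to 2.08), so changes of 3-fold in either direction lie inside the intervals. The arithmetic means stood the other way for Gpnmb, 543 ± 612 scaled reads in mdx/miR-133b-/- and 325 ± 120 in mdx (SD, n = 4 each; ratio 1.67), and further apart for Atp6v0d2 (ratio 1.885); replicate 3 held the highest value of each, 1420 and 436. Slc9a9 had the narrowest interval, -0.62 to 0.55 about -0.04. The means hide opposite libraries: without replicate 2 of mdx/miR-133b-/- Gpnmb stood at 0.80, Atp6v0d2 at 1.08 and Lgals3 at 0.58 on the log2 scale, and without replicate 3 at -0.88, -0.49 and -0.41, none of them called. Without both replicates, over the 2 left, the differences were 0.10 for Gpnmb, 0.53 for Atp6v0d2 and 0.25 for Lgals3, with no test.

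**Figure D3:**
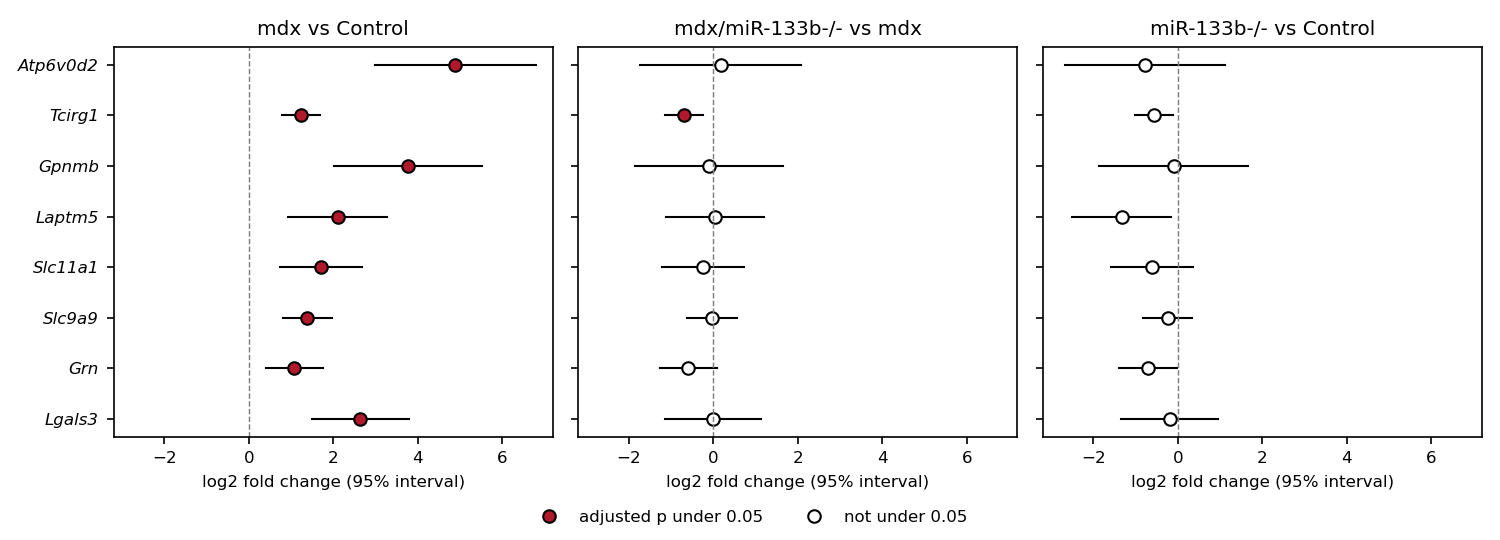
Log2 fold change of each gene with its 95% interval from the limma fit, in mdx against Control, mdx/miR-133b-/- against mdx, and miR-133b-/- against Control; filled points have an adjusted p under 0.05. All 8 are filled on the left, Tcirg1 alone in the middle and none on the right, where all 8 estimates are negative, those of Gpnmb and Lgals3 turning positive by limma-voom. The miR-133b-/- libraries on the right also served to select the table.

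The spread within mdx/miR-133b-/- was larger than within mdx for all 8 genes, as it was for 80.5% of all listed genes. The median SD of log2 values over the 8 was 0.99 in mdx/miR-133b-/- and 0.23 in mdx, and over all listed genes it was 0.38 in mdx/miR-133b-/- and 0.21 in mdx. Without replicate 2 of mdx/miR-133b-/- the median over the 8 was 0.62 and 7 of the 8 exceeded mdx, and without replicate 3 it was 0.97 and all 8 did. Without both, over the 2 libraries left, it was 0.43 and 5 of the 8 exceeded mdx, as did 69.4% of all listed genes. Relative to the mdx mean on the log2 scale, replicate 2 stood at -2.83 for Gpnmb, -2.52 for Atp6v0d2 and -1.74 for Lgals3, and replicate 3 at 2.20, 2.18 and 1.22 for the same genes. On this scale the summed macrophage markers stood at -0.96 in replicate 2 and 0.87 in replicate 3. Summed markers of regenerating fibres stood at -2.05 in replicate 2 and -0.67 in replicate 3, and those of mature fibres at -0.83 to -0.51 in the 4 libraries. Of those 4 fibre genes 3 fell in mdx/miR-133b-/- against mdx, Actn3 (log2 -0.90, limma adjusted p = 0.0155) and Pvalb (-0.78, 0.024) with the smallest p-values. Relative to the summed macrophage markers, Grn was lower in every mdx/miR-133b-/- library (1.60 to 3.66%) than in every mdx library (4.23 to 5.41%). The other 7 overlapped, and these shares depend on the weight of Lyz2 in the sum. The same was not counted over all listed genes. The part of cell makeup in this spread was not tested.

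**Figure D4:**
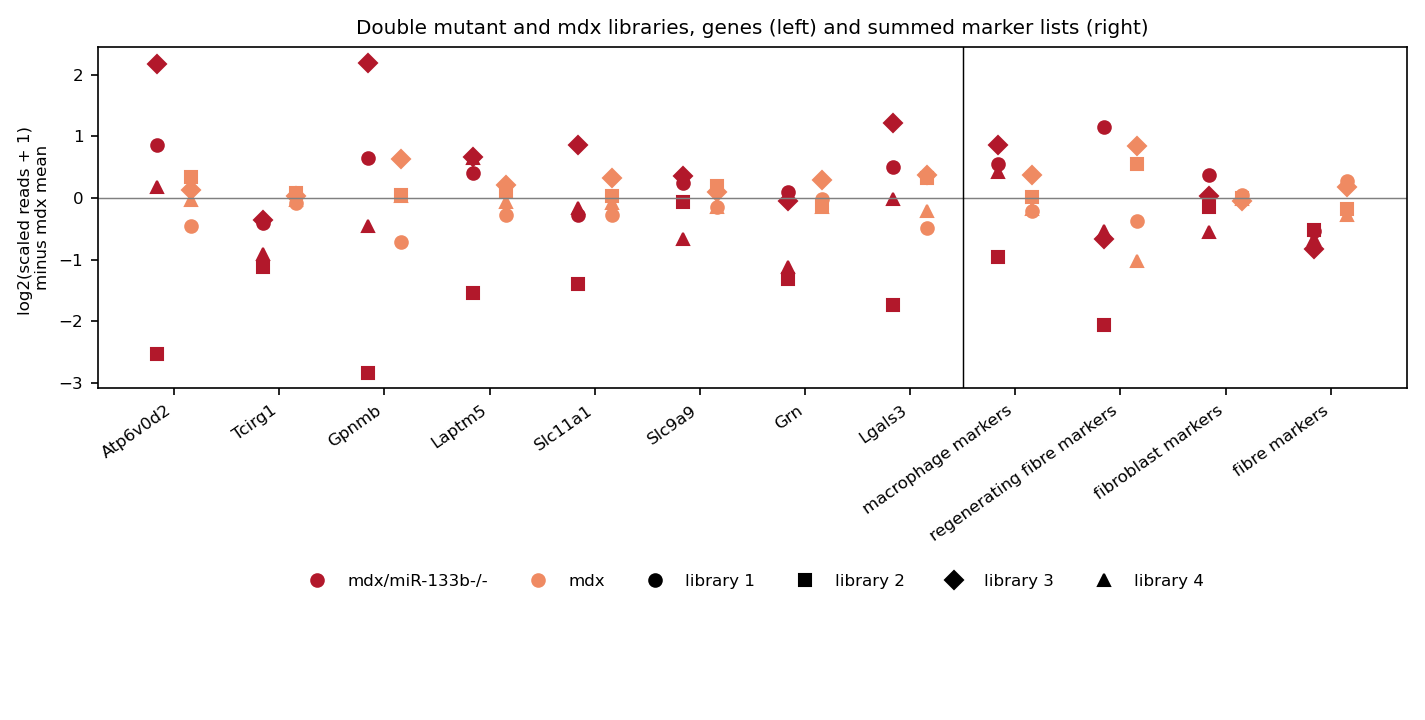
Log2(scaled reads + 1) minus the mdx mean in each mdx/miR-133b-/- and mdx library, for the 8 genes on the left and for summed marker lists on the right; shapes give library numbers. Library 2 of mdx/miR-133b-/- is lowest for 7 genes, down to -2.83 for Gpnmb, and library 3 is highest for 7, up to 2.20.

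In miR-133b-/- against Control none of the 8 genes passed and none of all 831 did (0%) by limma or by limma-voom on reads, while 84 genes had an unadjusted p under 0.05. All 8 estimates were negative, with a median log2 of -0.59 against -0.07 over all genes, but those of Gpnmb and Lgals3 did not keep their sign. The table was selected with these miR-133b-/- libraries, and all 8 genes entered it as lower there than in mdx/miR-133b-/-. That favours negative estimates for the 8, while the median over all genes includes 333 selected the other way. The shared sign is thus a description only. Gpnmb was at 0.04 with relative log expression factors, at 0.17 by limma-voom and at up to 0.61 with 1 library left out, and Lgals3 at 0.03 by limma-voom and at up to 0.17 with 1 library left out, on the log2 scale. Tcirg1 had -0.57 (95% interval -1.01 to -0.12, limma adjusted p = 0.359), and its miR-133b-/- libraries were all below those of Control, as were those of 1.93% of all genes. Laptm5 had -1.33 (-2.5 to -0.17, limma adjusted p = 0.408) and Grn -0.71 (-1.39 to -0.03, 0.435). Laptm5 spread 11.8-fold within miR-133b-/- (2 to 50 reads), and its Control libraries had 23 to 47 reads.

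The interaction, the mdx/miR-133b-/- minus mdx difference less the miR-133b-/- minus Control difference, passed for none of the 8 genes and for 0.963% of the table. Laptm5 had the largest estimate, 1.38 on the log2 scale (95% interval -0.27 to 3.03, limma adjusted p = 0.322); it was 1.91 without mdx/miR-133b-/- replicate 2 (limma adjusted p = 0.185) and 1.17 without replicate 3 (0.475). For Tcirg1, lower in both comparisons by estimate, it was -0.13 (-0.76 to 0.50). The effect of miR-133b loss was thus not shown to differ between dystrophic muscle and muscle with dystrophin for any of them.

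In mdx/miR-133b-/- against Control 7 of the 8 genes were called higher, against 54.3% of the table. The table here too includes the 333 genes that were lower in mdx/miR-133b-/- than in miR-133b-/-. It was selected with these mdx/miR-133b-/- libraries, and all 8 genes entered it as higher there. The folds, ranks and p-values of this comparison are thus favoured by the selection. Atp6v0d2, Laptm5, Slc11a1 and Slc9a9 had no overlap between the groups, as had 44.9% of all genes in that direction. Atp6v0d2 ranked 1 of 831 with a log2 fold change of 5.06 (SE 0.91, limma adjusted p = 0.00011), and its estimate ran from 4.40 without mdx/miR-133b-/- replicate 3 to 5.96 without replicate 2. Gpnmb had 3.67 (SE 0.84, limma adjusted p = 0.000667), with 2.90 and 4.58 for the same libraries left out; without Control replicate 1 it was 4.39, and Atp6v0d2 5.76. Grn did not pass (log2 0.48, limma adjusted p = 0.16), but passed without mdx/miR-133b-/- replicate 2 (0.72, 0.0434) and with the GC and length trend removed (0.98, 0.00809). Tcirg1 passed (0.54, limma adjusted p = 0.0229) and did not with relative log expression factors (0.14, 0.537) or without mdx/miR-133b-/- replicate 1 (0.44, 0.0719), replicate 3 (0.43, 0.0827) or Control replicate 4 (0.48, 0.0602).

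In the contrast by which the table was selected, mdx/miR-133b-/- against miR-133b-/-, log2 fold changes ran from 1.11 for Tcirg1 to 5.84 for Atp6v0d2. In 4 of the 8 the groups did not overlap, against 47.9% of the table. This comparison shares its libraries with the others and supports none of them.

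Levels can be compared between genes per kilobase of exon. In mdx/miR-133b-/- Lgals3 was highest, at 214 ± 145 scaled reads per kb (SD, n = 4), and Slc11a1 lowest, at 23.4 ± 14.6, and each neighbour in the order overlapped the next. In mdx Lgals3 was highest too, at 174 ± 48.1, followed by Grn at 110 ± 16.1, and then, apart from Grn, by Tcirg1 at 68.8 ± 3.32. In miR-133b-/- and Control Grn came first, at 34.4 ± 18.2 in miR-133b-/- and 51.8 ± 5.90 in Control, and Atp6v0d2 last, at 0.489 ± 0.571 in miR-133b-/- and 1.60 ± 2.18 in Control. Gpnmb stood second in mdx/miR-133b-/- (83.3 ± 94.0) and was next to last in Control (5.31 ± 6.64).

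The rest of the pathway is thinly represented in the table. All listed genes differed between mdx/miR-133b-/- and miR-133b-/-, and 44.5% of them were called higher in mdx against Control. In mdx/miR-133b-/- against mdx 19.5% were called in either direction. The counts here and in the next paragraph stand beside these shares, and several of the genes counted are among the 8. Of 25 proton pump subunits 3 were listed, and besides the 2 above there was Atp6v0e2, a small subunit of the membrane sector, which did not pass in mdx against Control (log2 -0.55, limma adjusted p = 0.0846). It averaged 80.4 ± 18.9 scaled reads in mdx/miR-133b-/- and 142 ± 21.8 in mdx (SD, n = 4 each) and fell (log2 -0.83, limma adjusted p = 0.0419). Of 41 lysosomal membrane proteins and transporters 7 were listed and all 7 rose in mdx against Control; outside the 8 genes these were Slc37a2, a sugar phosphate transporter of macrophages (4.57-fold), Cd63, a tetraspanin (1.72-fold), and Tpcn2, a cation channel (1.75-fold). None of the 7 was called in mdx/miR-133b-/- against mdx.

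Of 53 lumenal proteins 10 were listed and 9 rose in mdx, among them the protease Ctss (14.3-fold) and lysozyme, Lyz2 (5.94-fold). Idua, which degrades glycosaminoglycans, did not pass in mdx (log2 0.06, limma adjusted p = 0.778) and fell in mdx/miR-133b-/- against mdx (-0.59, limma adjusted p = 0.045). Of 38 galectins and damage response genes 3 were listed and all rose: Lgals3, Lgals1 (1.75-fold) and the annexin Anxa1 (2.41-fold), and Lgals1 fell in mdx/miR-133b-/- against mdx (log2 -0.67, limma adjusted p = 0.0416). Cybb, the catalytic subunit of the phagocyte oxidase and the 1 of 7 oxidase genes listed, rose 6.61-fold in mdx. All 8 of 22 listed genes of lipid-laden phagocytes rose, a list that holds Gpnmb and Lgals3; the receptor tyrosine kinase Axl (2.13-fold) and the receptor Clec7a (14.6-fold) had the smallest p-values. Of 13 osteoclast markers 3 were listed and rose, Atp6v0d2, Tcirg1 and the protease gene Ctsk (2.98-fold), and the other 10 were not analysed here. Ighm, the 1 listed of 12 lymphocyte markers, did not pass in mdx (log2 -1.13, limma adjusted p = 0.0763) and fell in mdx/miR-133b-/- against mdx (-1.64, 0.0419). The falls of Idua, Lgals1 and Ighm, and those of Atp6v0e2 and the fibre genes above, are from the main fit only. For Lgals1 and Ighm the 2 groups overlapped. This comparison had 162 calls over all listed genes in the main fit. The count was 55 with the GC and length trend removed, and 49 to 197 with 1 library left out.

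For each gene the listed gene outside the 8 with the most similar pattern over the 16 libraries was found, as the smallest root mean square difference of log2 values centred on each gene's mean. It was Fgfr4 for Tcirg1 (0.171, against a median of 0.883 over all listed genes), Clcn5 for Slc9a9 (0.242 against 0.805) and Lgmn for Grn (0.307 against 0.939). For Slc11a1 it was Cyth4 (0.419 against 0.970), for Lgals3 Tlr13 (0.481 against 1.36) and for Laptm5 Fcer1g (0.559 against 1.43). For Gpnmb it was Ctss (0.623 against 2.02) and for Atp6v0d2 Mpeg1 (1.01 against 2.67). Among the 8 themselves the closest to Gpnmb was Lgals3 (0.782) and the closest to Tcirg1 was Grn (0.328). A smallest difference lies below the median of the same differences by construction, so the medians give scale only. The genes share libraries, so these are descriptions.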

How the data were processed

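Reads were aligned and counted with HISAT2 and HTSeq on GRCm38, per the submitters' processing notes, and RNA was isolated with an Aurum kit with DNase, per the labels' protocols; their versions and the strand setting were not stated. The deposited table holds a signal value for 831 genes: the authors multiplied read counts of each library by a factor of its own (0.459 to 1), since division gave whole numbers within 0.001 read for 100% of values. Libraries were grouped by the code in each title, which is also the column name; the description field names another sample's code for 14 of 16. No 2 libraries of a group looked like 1 deposited again (chi-square per degree of freedom 38.7 or more in 24 pairs).

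The 8 genes, the gene lists and the tests were chosen with earlier results of these data known. Log2(value + 1) was fitted with limma 3.58.1 in R 4.3.3, with 1 mean per group over 16 libraries, a variance trend, and p-values adjusted by Benjamini-Hochberg over 831 genes at 0.05, with no filter; fold changes on this scale compare means of logs, depend on the 1 added where reads are few, and can differ either way from a ratio of means. Values being scaled and selected, this replaced a count test. Scripts were tested on simulated data. All identifiers matched GENCODE M21. Named genes were the 8, the 2 smallest p-values per list in mdx against Control and in mdx/miR-133b-/- against mdx, and the 2 most similar genes; other list genes are named by symbol or value. Alternatives covered scaling factors, pseudocount, variance trend, a minimum mean of 100, the fit's samples, GC and length, the replicate number, limma-voom and leaving out each library.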

Additional observations from a re-analysis of the deposited data

Results flagged for a closer look

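Of 32 sets of 4 libraries, 1 for each gene and group, 1 had a library far from the others, judged on scaled reads. Gpnmb in Control replicate 1 had 99.33 scaled reads, the next highest Control library had 15.67, and the gap was 0.925 of the whole range. Chance gives about 1 in 20 such sets if values are normally distributed, which was not tested. The rule was not applied to the log2 values used in the fits, 6.65 for this library and 4.06 for the next highest.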

How the results depend on the processing

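In mdx against Control every one of the 8 genes kept its direction and its call under each alternative that tested it; with a minimum mean of 100 only 5 of the 8 were tested, so 5 were called. The same minimum left 4 called higher in mdx/miR-133b-/- against Control and 4 interaction genes in the table. In mdx/miR-133b-/- against mdx the count called lower was 0 with the replicate block, with the GC and length trend removed, and with both; 55 genes of the table were called with that trend removed, with or without the block, against 162. Leaving out 1 library gave counts of 0 to 1 of the 8 and 49 to 197 of the table, 49 without mdx/miR-133b-/- replicate 4. Interaction calls in the table numbered 8, but 14 with relative log expression factors, 5 with the trend removed, and 7 to 110 with 1 library left out, 110 without miR-133b-/- replicate 2 and 15 without mdx/miR-133b-/- replicate 1; the causes were not tested. Replicate numbers did not pair samples (2 of 24 same-number pairs correlated above 0.1); with the block Tcirg1 in mdx/miR-133b-/- against mdx had an adjusted p of 0.0504, and no other call among the 8 changed with it alone. Some estimates near 0, none called, changed sign. In mdx/miR-133b-/- against mdx these were Lgals3 (0.00909 with pseudocount 10, 0.0178 by limma-voom, and 0.429 with the trend removed) and, with the trend removed, Atp6v0d2 (-0.0336) and Slc11a1 (0.0341). In miR-133b-/- against Control they were Gpnmb (0.0370 with relative log expression factors, 0.170 by limma-voom) and Lgals3 (0.0315 by limma-voom). In the interaction they were Gpnmb (0.0171 with upper quartile factors, 0.0160 with pseudocount 10), Grn (-0.0797) and Lgals3 (-0.00508) with relative log expression factors, Lgals3 by limma-voom (-0.0137) and Tcirg1 with the trend removed (0.112). With 1 library left out, ranges in mdx/miR-133b-/- against mdx were -0.488 to 1.08 for Atp6v0d2, -0.878 to 0.799 for Gpnmb, -0.162 to 0.574 for Laptm5, -0.611 to 0.1396 for Slc11a1, -0.168 to 0.177 for Slc9a9 and -0.413 to 0.575 for Lgals3. In miR-133b-/- against Control they were -0.580 to 0.615 for Gpnmb and -0.625 to 0.167 for Lgals3, and in the interaction -0.263 to 0.00550 for Tcirg1, -0.775 to 0.903 for Gpnmb, -0.117 to 0.434 for Grn and -0.220 to 0.768 for Lgals3. The planned count test (edgeR) was not run, since the table holds scaled values of selected genes; limma-voom in its place, and the spread without mdx/miR-133b-/- replicates 2 and 3, were chosen after seeing the data. With total depth unknown, changes of low genes such as Atp6v0d2 in groups with dystrophin are limited by counts of 0 to 18 reads.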
